A study of Mus musculus with 4 samples.

Results

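PRDM6 is a protein of the PR domain family with zinc fingers that smooth muscle cells (SMCs) express, and chromosome 4 is the mouse autosome on which the fewest PRDM6 ChIP peaks were called for its length. The peaks described here are all rows of the matched peak list that lie on chromosome 4, 590 of 13977 peaks (mm10), joined to the study's annotation by start and end. The chromosome was selected on the density of these same peaks, so density, peak strength and every other value of the peak calls are given as a description and no test was made of them. Primary mouse outflow tract SMCs, cells of the vessel wall where the heart empties, were infected with a lentivirus that overexpresses FLAG-tagged PRDM6, and the chromatin was cut with micrococcal nuclease, sonicated and precipitated with an antibody to the tag. The PRDM6 ChIP group and the Input group (chromatin that was not precipitated) held 2 libraries each, all from infected cells. By the study's methods, such cells come from the aortic arch and ductus arteriosus of late-gestation Prdm6 fl/fl embryos on a C57/Black6 background, and no Cre is named for these libraries. The assay recorded the tagged protein above its natural level, and the endogenous protein was not assayed. The study describes the immunoprecipitations both as made on 1 sample and as independent replicates, so their spread may be technical. Input entered through the peak calls alone, so no value of it could be set beside the peaks.

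A ChIP-seq peak is a place where precipitated fragments pile up above the background, and proteins that act on transcription commonly give peaks at promoters and at enhancers far from genes. PR domain proteins resemble histone methyltransferases, and their zinc fingers can contact DNA. AP-1 is a family of bZIP factors that includes Jun, TEAD proteins are the DNA-binding partners of YAP and TAZ, and a CArG box is the site of serum response factor, the main driver of contractile genes in SMCs. Each peak carried a MACS2 −log10 p-value in each replicate, named by their order in the list as first-listed and second-listed, and the smaller of them served as its strength. The global irreproducible discovery rate (IDR), which the authors computed, is low where both replicates rank a peak consistently high.

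The 8 windows below are shown because they are the summits of the strongest chromosome 4 peaks outside UTRs, and of the strongest that held an AP-1 or TEAD motif. Each reaches 100 bases to either side of the summit on the plus strand of mm10 (GRCm38 RefSeq sequence), with AP-1 motifs (TGACTCA or TGAGTCA) and TEAD motifs (AGGAATGC, AGGAATGT, GGGAATGC or GGGAATGT, or their reverse complements) in capitals. The first 3 are among the strongest by −log10 p-value, where Khdrbs1 tied with Morn1, shown last. Pappa encodes a protease that frees insulin-like growth factors, Bach2 a bZIP repressor and Khdrbs1 an RNA-binding protein.
Pappa: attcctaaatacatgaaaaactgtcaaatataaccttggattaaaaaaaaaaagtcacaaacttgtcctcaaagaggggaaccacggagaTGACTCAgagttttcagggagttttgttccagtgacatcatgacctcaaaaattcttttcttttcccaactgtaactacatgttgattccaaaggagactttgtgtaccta
Bach2: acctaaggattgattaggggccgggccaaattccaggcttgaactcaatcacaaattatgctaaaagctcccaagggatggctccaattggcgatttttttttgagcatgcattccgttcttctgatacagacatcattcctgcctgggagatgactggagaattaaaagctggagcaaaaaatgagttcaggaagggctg
Khdrbs1: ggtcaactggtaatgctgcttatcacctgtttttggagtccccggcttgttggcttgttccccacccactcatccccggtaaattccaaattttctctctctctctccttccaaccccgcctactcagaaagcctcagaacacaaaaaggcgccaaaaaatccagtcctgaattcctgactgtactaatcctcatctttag

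The Pappa window (chr4:65083358-65083558) held an AP-1 motif, and the windows of Bach2 (chr4:32175389-32175589) and Khdrbs1 (chr4:129743081-129743281) held neither motif. The next 3 are the strongest other summits with an AP-1 motif, at Pdp1 (chr4:11918406-11918606), Tmem38b (chr4:54027953-54028153) and Trabd2b (chr4:114356227-114356427). The window of Tmem38b also held a long run of A, and the summits of the replicates lay 419 bp apart at this peak.
Pdp1: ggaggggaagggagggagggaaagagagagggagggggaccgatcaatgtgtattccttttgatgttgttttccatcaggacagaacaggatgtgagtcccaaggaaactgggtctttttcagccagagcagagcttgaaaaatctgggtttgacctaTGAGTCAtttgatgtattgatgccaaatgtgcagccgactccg
Tmem38b: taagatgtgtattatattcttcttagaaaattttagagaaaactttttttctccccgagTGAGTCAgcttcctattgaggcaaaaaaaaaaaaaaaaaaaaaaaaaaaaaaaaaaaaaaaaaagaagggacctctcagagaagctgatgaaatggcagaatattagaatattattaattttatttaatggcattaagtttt
Trabd2b: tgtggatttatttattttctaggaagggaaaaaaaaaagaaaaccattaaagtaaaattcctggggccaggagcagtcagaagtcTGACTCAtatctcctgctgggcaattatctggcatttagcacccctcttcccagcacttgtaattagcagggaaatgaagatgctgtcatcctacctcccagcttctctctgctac

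The last are the strongest summits outside UTRs with a TEAD motif, at Morn1 (chr4:155144287-155144487) and Gm11217 (chr4:64635595-64635795), with the motif on the minus strand at Morn1 and on the plus strand at Gm11217.
Morn1: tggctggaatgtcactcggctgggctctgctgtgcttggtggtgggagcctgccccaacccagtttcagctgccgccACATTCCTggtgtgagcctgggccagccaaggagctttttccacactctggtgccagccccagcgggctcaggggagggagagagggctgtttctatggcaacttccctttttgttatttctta
Gm11217: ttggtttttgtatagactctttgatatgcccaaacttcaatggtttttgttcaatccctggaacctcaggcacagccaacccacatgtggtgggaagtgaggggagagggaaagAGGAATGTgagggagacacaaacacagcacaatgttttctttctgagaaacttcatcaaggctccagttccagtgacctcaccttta

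Chromosome 4 carried 3.88 peaks per Mb of known sequence, the lowest value of the 19 autosomes. Just above it was chromosome 7 with 4.07 peaks per Mb, the median of the 18 other autosomes was 5.82, and chromosome 15 had the highest density at 8.57. Chromosome 4 made up 6.35% of the autosomal sequence and 4.25% of the autosomal peaks. It is not poor in genes, with 8.73 protein-coding genes per Mb against a median of 7.92 on the other autosomes. Counted per protein-coding gene, its 0.445 peaks ranked 4 from the lowest, and chromosome 7 was lowest with 0.285. The annotation assigned a peak to 186 of its 1327 protein-coding genes (14.0%, 95% Wilson interval 12.3% to 15.99%), beside 20.2% of the protein-coding genes of all chromosomes. Among the autosomes only chromosome 7, with 10.0%, had a smaller share.

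**Figure D1:**
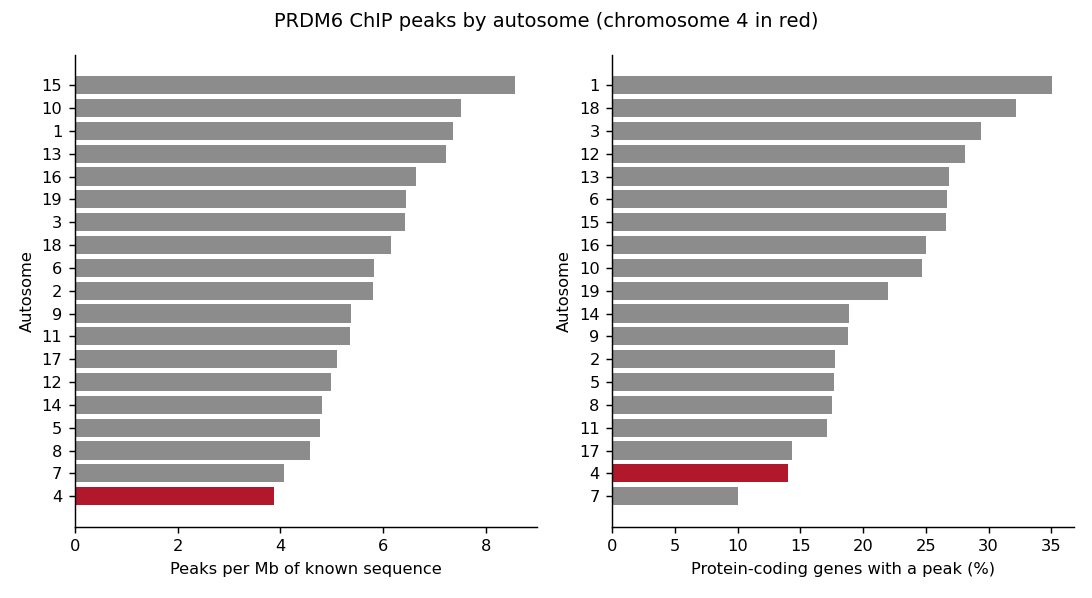
Bars give, for each autosome, the peaks per Mb of known sequence (left) and the percent of protein-coding genes with an assigned peak (right), ordered from low to high, with chromosome 4 in red. Chromosome 4 is lowest on the left at 3.88 and second lowest on the right at 14.0%.

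The low density was not evenly spread along the chromosome. The bin from 80 to 90 Mb held 118 peaks (20% of the chromosome, 11.8 per Mb), and the bin just before it, from 70 to 80 Mb, held 8 peaks (0.800 per Mb). The bins from 10 to 20 Mb and from 50 to 60 Mb followed with 66 and 59 peaks. From 100 Mb to the end of the chromosome the density was 2.73 peaks per Mb (151 peaks), although this stretch holds 14.4 protein-coding genes per Mb. The first 100 Mb had 4.55 peaks per Mb (439 peaks) and 5.38 protein-coding genes per Mb. Peaks per protein-coding gene were thus 0.190 in the distal and 0.846 in the proximal stretch. Promoters took 26.5% of the distal peaks (95% Wilson interval 20.1% to 34.0%) and 14.6% of the proximal ones (11.6% to 18.2%). Across the 16 bins of 10 Mb, density and protein-coding genes per Mb had a Spearman correlation of -0.25, which is a description over bins of 1 chromosome that share both libraries. On the 18 other autosomes the same value ran from -0.60 on chromosome 2 to 0.71 on chromosome 3.

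**Figure D2:**
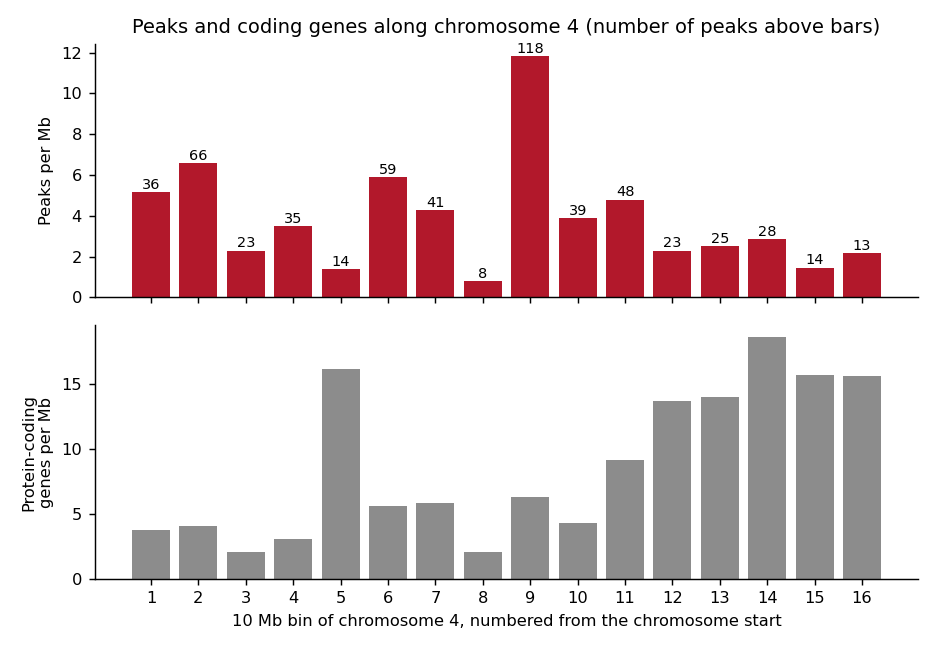
Peaks per Mb (upper bars, number of peaks above each) and protein-coding genes per Mb (lower bars) in 16 consecutive bins of 10 Mb, numbered from the chromosome start. Bin 9 stands out with 118 peaks, and the gene-rich bins 12 to 16 held between 13 and 28 peaks each.

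GC content was compared because it changes along the chromosome. The 1 Mb windows of all autosomes were split into quartiles of GC content. In order from the lowest GC quartile to the highest, chromosome 4 had 1.98, 6.55, 5.10 and 2.56 peaks per Mb, where the other autosomes together had 3.36, 7.65, 7.52 and 5.13. In both upper quartiles no other autosome was lower, and in each of the lower quartiles 5 of the 18 others were. With its own GC makeup and the rates of the other autosomes, chromosome 4 would have had 871 peaks, and the 590 observed were 0.677 of that number. This ratio was second lowest, after chromosome 7 with 0.669.

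**Figure D3:**
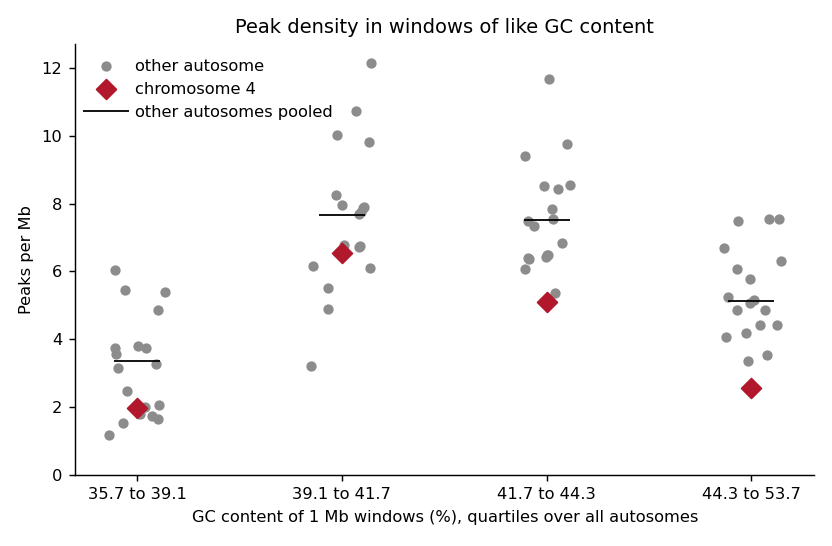
Peaks per Mb in 1 Mb windows grouped by GC quartile, with chromosome 4 as red diamonds, each other autosome as a grey point and the other autosomes pooled as a black line; horizontal scatter within a quartile has no meaning. Chromosome 4 lies below the pooled line in every quartile, at 2.56 against 5.13 in the highest.

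Neighbouring peaks lay a median of 56.1 kb apart, and 33 intervals without a peak were longer than 1 Mb. These summed to 80.6 Mb with runs of N included, a length equal to 53.0% of that of the known sequence of the chromosome. The longest, 5.66 Mb between peaks of Zfp292 and 4933428C19Rik (chr4:34887099-40543598), holds 12 protein-coding genes, counting here and below those that lie wholly inside, among them Lingo2 and C9orf72. Next came 4.46 Mb between Nkain3 and Gpr63 (chr4:20644572-25101515), with Pou3f2, a neural transcription factor, and Prdm13, another PR domain gene. The interval of 4.21 Mb between Ptprd and Tyrp1 (chr4:76425829-80635803) holds no whole protein-coding gene, but it takes in the larger part of Ptprd with its gene start. That of 4.15 Mb between Uts2 and Morn1 (chr4:150973969-155122736) holds 48, including Prdm16, Hes5 and Trp73. The fifth, 3.77 Mb between Tnfrsf1b and Pex14 (chr4:145279390-149049436), holds 47 protein-coding genes, 18 of them Zfp genes, and includes Nppa and Nppb, which encode the natriuretic peptides of the heart. Long peak-free intervals were therefore found in gene-poor and in gene-rich sequence alike.

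Several families of duplicated genes lie on chromosome 4, and most had no peak. None of the 22 major urinary protein genes, 24 olfactory receptor genes, 11 Skint genes, 10 Cyp4 genes, 9 Pramel genes or 3 vomeronasal receptor genes had one. A peak was assigned to 1 of 18 type I interferon genes (Ifnb1) and to 2 of 30 Zfp genes (Zfp292 and Zfp462). In all, 3 of the 127 genes of these families had a peak (2.36%), and 183 of the 1200 other protein-coding genes did (15.3%). Counts in near-identical copies are uncertain, since reads that match several copies may be lost or split.

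The densest stretch of the chromosome was at the Cdkn2a and Cdkn2b genes, which encode inhibitors of the cell cycle. The window from 89 to 89.5 Mb held 35 peaks, more than any other 500 kb window of any autosome. The fullest window of each other autosome held between 13 (chromosome 18) and 31 (chromosome 2), with a median of 21, and the next fullest window of chromosome 4 held 13. From the first peak of Wincr1, a long non-coding RNA gene, to the last peak of Gm12610 (chr4:89001084-89530652, a stretch chosen after its values were seen) there were 39 peaks in 529.6 kb, or 73.6 per Mb. The rest of the chromosome had 3.64 per Mb. The annotation gave 23 of the 39 peaks to Gm12610, a gene of the GENCODE type processed transcript, 9 to Wincr1, 3 to Cdkn2a, 2 to Mtap, 1 to Cdkn2b and 1 to Gm12602.

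The 23 Gm12610 peaks lay 39.4 to 219 kb beyond the start site of Cdkn2b, and 16 of them were distal intergenic. The sequence on this side of Cdkn2b is the mouse counterpart of a human non-coding interval linked to coronary artery disease. Their −log10 p-values ran from 3.21 to 12.03 with a median of 6.15 in the first-listed and from 3.83 to 9.98 with a median of 6.61 in the second-listed replicate. The medians over all 590 peaks were 6.31 and 6.61, so these peaks stood out by their number and not by their strength. In the whole stretch no peak reached a global IDR of 0.05. The lowest score given to any peak was that of 18 of the 39, beside 279 of the 590 of the chromosome. At the Cdkn2a promoter (chr4:89281768-89283231) the −log10 p-value was 4.71 in the first-listed and 15.7 in the second-listed replicate, so the replicates stood far apart. At the Cdkn2b promoter (chr4:89310729-89311061) it was 4.04 and 4.31, close to the weakest of the list in both. AP-1 letters were present at 2 of the 39 summits (5.13%, 95% Wilson interval 1.42% to 16.9%) and at 69 of the 551 other summits of the chromosome (12.5%, 10.0% to 15.5%). Directly after the stretch came 3.69 Mb without a peak. The Input group gave no value for this stretch.

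**Figure D4:**
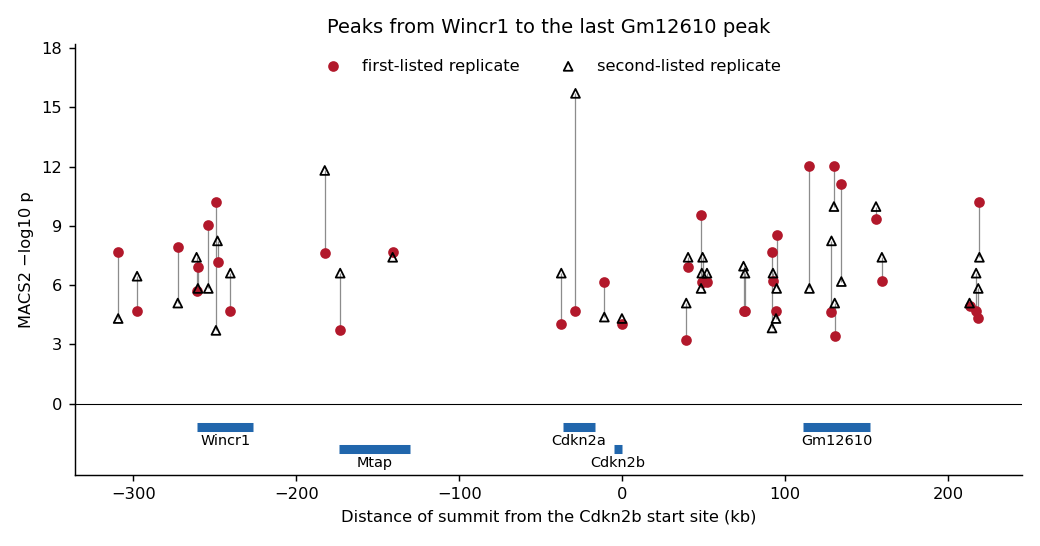
MACS2 −log10 p-values of the 39 peaks in both replicates (filled circles, first-listed; open triangles, second-listed; a line joins the values of a peak) against the distance of the summit from the Cdkn2b start site in kb, with 5 genes as blue bars below. Values beyond Cdkn2b lie between 3.21 and 12.03, and the Cdkn2a promoter peak stands out with 15.7 in the second-listed replicate alone.

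Peaks of chromosome 4 were otherwise seldom crowded. Runs of at least 4 peaks with neighbours at most 25 kb apart took in 103 peaks (17.5%), the smallest share of the 19 autosomes, the others running from 19.4% to 29.3%. There were 18 such runs. The largest were 19 peaks at Gm12610, 9 at Wincr1, 8 upstream of Trabd2b, which encodes a protease that cleaves Wnt proteins, and 7 each at Osbpl9 and Pde4b. The peaks were also narrow, with a median width of 529 bp where the medians of the other autosomes ran from 552 to 654.5 bp.

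In the annotation 585 of the 590 peaks carried the symbols of 215 genes, and 5 had no symbol. With 1 peak each there were 104 genes, with at least 5 there were 32, and with at least 10 there were 10. After Gm12610 came Klf4 with 14 peaks, a zinc finger factor known to repress contractile genes in SMCs. The Klf4 promoter peak (chr4:55533094-55535170) had −log10 p-values of 7.71 and 8.25 in the first- and second-listed replicate. Of the 14 peaks, 11 lay more than 100 kb from the Klf4 TSS, so most of them belong to Klf4 by assignment only. Runx1t1, a corepressor gene, had 12 peaks of which 4 were at a promoter. Map3k7, which encodes a kinase of the TGF-β pathway, had 12, none at a promoter and 10 more than 100 kb away. Adamtsl1, a secreted matrix protein, had 12, all intronic. Bach2 had 11, Nfia 10 (8 of them intronic), Pappa 10, Trabd2b 10 and the gene 4930448K20Rik 10, all more than 100 kb from its TSS.

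The strongest peak of the chromosome (chr4:88411909-88413060) was annotated as 3′ UTR. It was assigned to Focad, a focal adhesion gene, from a transcript start that the annotation puts 11344 bp away, but it lies past the end of Focad and inside the gene Hacd4 in GENCODE. The peak had −log10 p-values of 26.5 and 23.2, the highest score of the list (1000) and a global IDR of 3.0e-04, and its summit held a TEAD motif. The Pappa peak (chr4:65082729-65083918) had 17.9 and 17.8, and the Bach2 peak, at -63030 bp from the TSS, had 15.8 and 17.8. Values of 14.9 and 16.7 were found at the Khdrbs1 promoter, where the peak lies at -617 bp from the TSS. The peak in the last intron of Morn1 had 14.9 and 21.0. All of these were high in both replicates.

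A global IDR of at most 0.05 was reached by 17 of the 590 peaks (2.88%, 95% Wilson interval 1.81% to 4.57%), beside 3.33% of the whole list. Along with those named, they were assigned to Mllt3, a transcription elongation factor, Tmem38b (2 peaks), a cation channel of the sarcoplasmic reticulum, Spaca1, Id3, Pdp1, Macf1, Svep1, Gm11217, Runx1t1, Pde4b and Tnc. Id3 encodes an inhibitor of bHLH factors, and its peak at -19369 bp from the TSS had −log10 p-values of 17.9 and 12.8. Runx1t1 had 12.95 and 13.7 at its promoter peak. The peak assigned to Tnc, a matrix glycoprotein gene, had 12.03 and 14.7, lay at -28617 bp from the Tnc start and overlapped an exon of another transcript. The Tmem38b, Spaca1 and Gm11217 peaks lay more than 100 kb from the TSS and belong to these genes by assignment only. Of the 17, 8 were distal intergenic, 4 intronic and 2 at promoters. An AP-1 motif was at 3 of these summits and a TEAD motif at 3, with 6 holding either. The lowest score of all belonged to 279 peaks of the chromosome (47.3%), the largest share of the autosomes, where the others ran from 37.4% to 44.4%.

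Peak strength in each replicate gave part of the depth. MACS2 sets each peak against the whole genome's background or a local one, whichever is higher, and values that rest on the genome-wide one can be recognised. On chromosome 4 these were 74.7% of peaks (441 of 590) in the first-listed and 82.0% (484) in the second-listed replicate, the highest share of any autosome in both. The other autosomes together had 57.4% and 62.5%. Chromosome 7, the next sparsest, was close with 72.3% and 74.2%, and chromosome 15, the densest, had 21.6% and 26.7%. Across the 19 autosomes this share and the density had a Spearman correlation of -0.60 in the first-listed and -0.69 in the second-listed replicate, as a description of chromosomes that share both libraries. Where the height could be read back, the median chromosome 4 peak was 14 and 13 fragments high. Between the replicates, −log10 p-values of the 590 peaks, which are not independent, correlated with a Spearman value of 0.309, and their summits lay a median of 115 bp apart. What makes the local background differ between chromosomes was not tested.

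**Figure D5:**
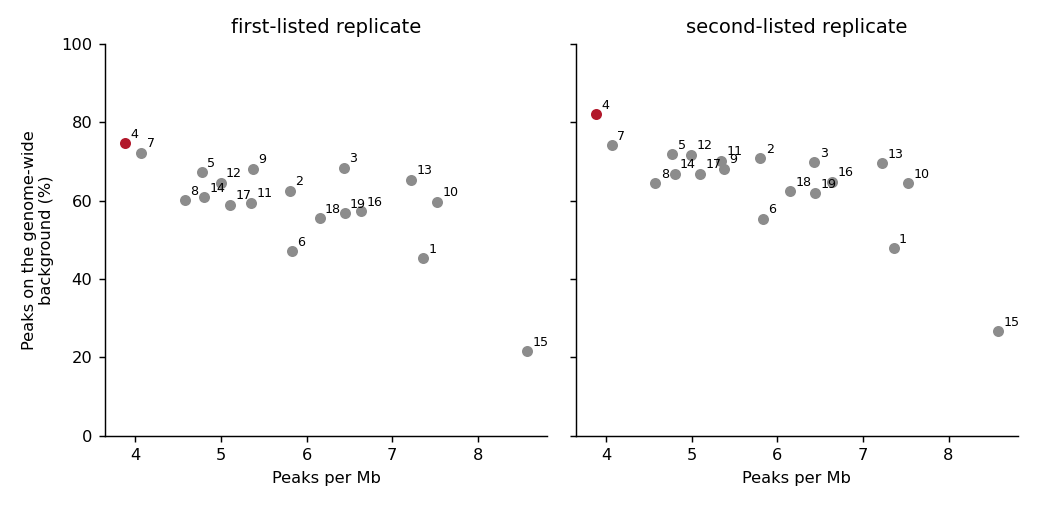
Percent of peaks whose p-value rests on the genome-wide background against peaks per Mb, 1 point for each autosome (number beside it), with 1 panel for each replicate and chromosome 4 in red. Chromosome 4 sits at the upper left with 74.7% and 82.0%, and chromosome 15 at the lower right with 21.6% and 26.7%.

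The promoter share was smaller than elsewhere, and for the distal intergenic and intronic shares the interval of the difference held 0. Promoters, within 3 kb of a TSS, took 104 of the 590 peaks (17.6%, 95% Wilson interval 14.8% to 20.9%), against 21.5% on the other autosomes (difference -3.86 percentage points, 95% Newcombe interval -6.80 to -0.50). Distal intergenic peaks made up 39.8% against 37.0% (2.82, -1.14 to 6.91), and intronic peaks 37.5% against 35.8% (1.62, -2.28 to 5.68). Peaks more than 100 kb from the TSS of their gene were more common, at 24.6% against 19.01% (5.57, 2.197 to 9.26). Altogether 36 shares were set beside those of the other autosomes with no adjustment, and all these intervals cover counting error over peaks only. Peaks of a gene or run are not independent, and the intervals would be wider if that were counted.

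Motifs at the summits were counted within 100 bp on each side, on both strands, and in windows of like size 1000 bp away. AP-1 was at 71 summits of chromosome 4 (12.03%, 95% Wilson interval 9.65% to 14.9%) and at 4.41% of flanks. On the other autosomes it was at 14.4% of summits, a difference of -2.36 points (95% Newcombe interval -4.82 to 0.57), and in the whole list at 14.3%. The share on chromosome 4 was the lowest of the autosomes, though the interval of the difference holds 0. At the summits of the second-listed replicate alone AP-1 was found at 8.98% against 12.5% elsewhere, a difference of -3.51 points (-5.64 to -0.87) whose interval leaves out 0, and at those of the first-listed alone at 12.2% against 13.4% (-1.18, -3.65 to 1.77). At intronic peaks alone AP-1 was found at 20 of 221 (9.05%, 5.93% to 13.6%) against 16.04% elsewhere, a difference of -6.99 points (-10.3 to -2.36). Without the dense stretch at Cdkn2b it was 9.48% of 211 intronic peaks. At distal intergenic peaks the shares were 15.3% and 16.2% (difference -0.92, -5.10 to 4.34), and at promoters 8.65% and 8.33% (0.32, -3.85 to 7.37). The difference between intronic and other peaks in this respect was not tested.

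TEAD motifs were at 47 summits (7.97%, 6.04% to 10.4%) and 4.24% of flanks, where the other autosomes had 7.37% and the whole list 7.45%. The difference was 0.59 points (95% Newcombe interval -1.38 to 3.10). The short words TTTCAT and TTTCCT, counted as 1 motif, were at 43.1% of summits on chromosome 4, at 43.1% in the whole list and at 39.7% of the flanks on chromosome 4. A CArG box was at 10 summits (1.69%, 0.923% to 3.09%), beside 2.03% of flanks and 1.41% of all summits. For none of these 3 did the interval of the difference from the other autosomes at summits leave out 0. A match says only that the letters are present.

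Genes were also grouped by function in lists that were drawn up with earlier results of these data known, and kept where the gene lies on chromosome 4. For comparison, 14.0% of all protein-coding genes of the chromosome had a peak, and gene length was not taken into account. In a list of 43 genes, mostly transcription factors, 12 had a peak (27.9%), with 74 peaks in all. The list also holds other regulators, such as Hdac1 and Lin28a, and it is not complete, since Zfp462 is not in it. Besides Klf4, Bach2 and Nfia, its genes with a peak were led by Bnc2 with 8 peaks. This zinc finger gene had 5 at promoters, with −log10 p-values of 10.2 and 9.10 at the strongest. Nfib, Rere and Mllt3 had 6 each. Jun, a subunit of AP-1, had 3 peaks, 2 at its promoter, and the strongest had −log10 p-values of 7.17 and 10.9 but lay at -48074 bp from the TSS. No peak was assigned to Prdm16, Prdm2, Pax7, Pax5, Foxd2, Foxd3, Foxe1, Foxj3, Foxo6, Runx3, Tal1, Heyl, Hes2, Hes3, Hes5, Tfap2e, Dmrta1, Dmrta2, Mycl, E2f2, Arid1a, Casz1, Ski, Hdac1, Lin28a, Zfp37, Zbtb17, Nfx1, Pou3f1, Pou3f2 or Rragd, the last of which encodes a small GTPase.

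Of 22 extracellular matrix genes 6 had a peak (27.3%, 38 peaks): Adamtsl1 with 12, Pappa with 10, Tnc with 9, Mmp16 with 5, and Svep1 and Susd1 with 1 each. The Svep1 peak, in its first intron, had −log10 p-values of 15.8 and 13.7, high in both replicates, but their summits lay 713 bp apart. All 5 peaks of Mmp16, a membrane-bound matrix protease gene, lay more than 100 kb from its TSS, the nearest at -618927 bp. The collagen genes Col8a2, Col9a2, Col15a1, Col16a1 and Col27a1 had none, nor had Hspg2, Frem1, Mfap2, Mmp23, Plod1, P3h1, Ambp, Matn1, Megf6, Agrn or Vwa1.

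Of 28 genes of the actin cytoskeleton and contraction 9 had a peak under their own symbol (32.1%, 25 peaks). Pde4b, which breaks down cyclic AMP, had 9 and Macf1, which links actin and microtubules, had 7, with −log10 p-values of 14.9 and 14.7 at the strongest Macf1 peak. Ctnnal1 and Mtap had 2 each, and Clic4, Cap1, Cdc42, Rgs3 and Epb41 had 1 each. The single peaks of Clic4, Cdc42, Rgs3 and Epb41, but not that of Cap1, had the lowest score of the list. Mtap encodes an enzyme of purine and methionine salvage and lies in the dense stretch at Cdkn2a, and without it the list had 8 of 27 genes with a peak (29.6%, 23 peaks). Tpm2, a tropomyosin gene of smooth muscle, had no peak, and neither did Tln1, Capzb, Npr2, Marcksl1, Lck, Tmod1, Smap2, Fhl3, Stmn1, Wasf2, Kif1b, Svbp, Rap1gap, Arhgef10l, Arhgef16 or Prkaa2. Palm2 and Akap2, which RefSeq joins as Pakap, had none under these symbols, but 7 peaks lay within their GENCODE span (chr4:57434247-57896984), 2 under Pakap and 5 without a symbol. With both counted by position, 11 of the 28 genes had a peak (39.3%, 32 peaks).

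Of 33 genes for growth factors, guidance cues and receptors 11 had a peak (33.3%), but none had more than 4, which made 19 peaks in all. Epha7, an ephrin receptor gene, had 4, of which 3 lay more than 100 kb away. Tek, the angiopoietin receptor gene of endothelial cells, Ptprd, Jak1, Tnfsf8 and Tnfsf15 had 2 each. Tgfbr1, a TGF-β receptor gene, had 1 peak, at its promoter (chr4:47352065-47352964), with −log10 p-values of 8.52 and 7.92. No member had a peak at a global IDR of at most 0.05. Those without a peak included Epha2, Epha8, Epha10, Wnt4, Lepr, Dvl1, Musk, Tie1, Csf3r, Ptprf, Dab1, Pdpn, Cntfr, Gabbr2, Insl5, Wdtc1, Tnfrsf9, Ccl19, Ccl21a and Ccl27a.

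Of 20 genes of vascular tone and channels 1 had a peak (5.00%). This was Cnr1, a cannabinoid receptor gene, with 2 promoter peaks and −log10 p-values of 7.71 and 4.39 at the stronger. Both peaks had the lowest score of the list. The endothelin gene Edn2, Ece1, the connexin genes Gja4 and Gjb5, the natriuretic peptide genes Nppa and Nppb, Agtrap, Ptafr, Htr1d, Htr6, Oprd1, Kcnab2, Clcn6 and Pla2g5 were among those with none. Of 20 genes of the cell cycle and tumour suppression 6 had a peak (30.0%, 11 peaks): Cdkn2a and Errfi1 with 3, Rcc2 with 2, and Cdkn2b, Cdkn2c and Melk with 1. Ccne2, Plk3, Cdc20, Cdca8, Cdk11b, Trp73, Mtor, Mad2l2, Rcc1, Ccnl2, Haus6, Kif2c, Stil and Zmym1 had none. The shares of these lists were not tested against each other or against the chromosome.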

How the data were processed

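ChIP-seq was done on 2 PRDM6 ChIP and 2 Input libraries. According to the study's methods and processing notes, reads were aligned to mm10 with BWA, peaks were called in each replicate against input with MACS2, matched by IDR and annotated. The deposited score is a scaled IDR, and the deposited −log10 p-values are those of MACS2, per replicate and as the smaller of both. The deposited −log10 global IDR was turned into an IDR, and the authors' distances to the TSS were used as given, in bp. The columns for signal and q-value held placeholders and were not used. The order of the replicates was known, but not which library each was. The list gives no read totals.

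Peaks were counted per Mb without runs of N. Genes came from GENCODE M21 and sequence from GRCm38. Values within 0.0002 of a Poisson tail of the best-supported mean counted as resting on the genome-wide background, which gave peak heights; the recovery and the motif search were tested on simulated data. Shares carry 95% Wilson intervals and differences 95% Newcombe intervals, for counting error only. Python 3.11.15, pandas 2.3.3, SciPy 1.17.1 and pysam 0.24.0 were used. No test was made, since peaks of 1 matched list are not replicates.

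The chromosome, the gene lists, the families and the motifs were chosen with earlier results of these data known. The genes named include the 10 with the most peaks, those of the 10 strongest peaks and of peaks up to an IDR of 0.05, the listed genes, and the genes around the 5 longest intervals without a peak. Others were named because they belong to a family, the dense stretch or a large run of peaks. Some lie inside a long interval or overlap a named peak. Some listed genes are not reported here by name. Alternatives were IDR limits, joined peaks, the stronger peaks of the list, other bins, windows and distances, a separate annotation, each replicate's summits, and, added after seeing the data, a GC-standardised density, the density without the stretch at Cdkn2b and the actin list without Mtap or with Palm2 and Akap2 counted by position. Genes were matched to peaks by symbol, or also by Ensembl ID for the share of protein-coding genes.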

Additional observations from a re-analysis of the deposited data

How the results depend on the processing

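Chromosome 4 stayed the sparsest autosome with peaks closer than 1 kb joined, in the stronger 6989 peaks of the list, and without the stretch at Cdkn2b. It ranked 2 from the lowest at an IDR limit of 0.05, where chromosome 5 was lower, and with GC standardised, where chromosome 7 was lower, and it ranked 4 per protein-coding gene. The density itself was 0.112 peaks per Mb at an IDR of at most 0.05, 0.0263 at one of at most 0.01 and 1.78 in the stronger peaks, which by construction count fewer peaks. The fullest bin took 12.9% of peaks with 5 Mb bins and 13.9% with bins shifted by 5 Mb, so the 20% depends on where bins start.

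The promoter share was 12.9% within 1 kb in the separate annotation and 11.8% of the 17 peaks with an IDR of at most 0.05, and the distal intergenic share of the latter was 47.1%. Genes with a peak numbered 111 within 10 kb of the TSS and 16 at an IDR of at most 0.05. Windows of 50 bp and of 200 bp changed the motif shares to 6.95% and 22.4% for AP-1, 4.24% and 14.1% for TEAD, 23.6% and 67.1% for TTTCAT or TTTCCT, and 0.678% and 2.88% for CArG, the last of which stayed within its interval. AP-1 was at 8.98% of the summits of the second-listed replicate, where the interval of its difference from the other autosomes left out 0. At an IDR of at most 0.05, where 17 peaks remained, the motif shares were 17.6% for AP-1, 17.6% for TEAD, 64.7% for TTTCAT or TTTCCT and 5.88% for CArG. The share on the genome-wide background was 82.0% in the second-listed replicate. The share of peaks in runs was 10.3% with neighbours within 10 kb and 32.5% within 50 kb. The other 23 of 51 alternatives stayed within the limit set for their kind of result. This was the interval for shares, the spread for medians, the same rank for ranks, and a fold limit for density and gene counts. No paired analysis was possible because no test was made and the Input group has no values. The list gives no read totals, and among peaks on the genome-wide background the median height was 14 fragments in the first-listed and 13 in the second-listed replicate.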
